A study of Mus musculus with 12 samples.

Results

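The 10 genes described here encode the T cell receptor (TCR) complex and the first proteins of its signaling pathway. They were taken by symbol from the 55536 genes of the count table, and all 10 passed the expression filter that left 20263 genes for testing. The antigen-binding side was represented by Trac and Trbc2, the constant segments of the TCR alpha and beta chains. Cd3d, Cd3e, Cd3g and Cd247 encode the CD3 delta, epsilon, gamma and zeta chains. Lck and Zap70 encode kinases, Lat an adaptor, and Il7r the alpha chain of the IL-7 receptor.

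RNA was measured in MKs sorted from Pf4-TdTomato mice on a C57BL/6 background, in which a Cre driven by the Pf4 promoter switches on a red fluorescent protein. The 4 groups were BM MKs after saline, BM MKs after sepsis, splenic MKs after saline and splenic MKs after sepsis, each with 3 libraries of 300 pooled sorted cells taken on day 5. Sepsis was induced by intraperitoneal cecal slurry (CS), septic mice were given saline under the skin, and the study used male and female mice aged 8 to 12 weeks. The gate was CD45+, lineage negative, tomato+, CD41+ and CD42b+, and the lineage antibodies included one against CD3, so that cells with CD3 on their surface were meant to be removed. The reporter marks cells in which Pf4-Cre was ever active and their progeny, and the gate was set on proteins, whereas the values below are RNA.

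A T cell recognizes antigen through an alpha and beta chain pair that has almost no cytoplasmic part of its own. The CD3 chains and the zeta chain carry the signaling motifs, which Lck phosphorylates, and Zap70 binds the phosphorylated motifs and in turn phosphorylates Lat, the scaffold on which downstream enzymes gather. IL-7 receptor signals keep resting T cells alive. MKs and platelets have no TCR but use Lat downstream of the collagen receptor GPVI and of CLEC-2. At GPVI the FcR gamma chain takes the place of the CD3 chains, and at both receptors the kinase Syk takes that of Zap70.

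Cd3g, Cd3d and Cd3e lie close together on chromosome 9 of GRCm38. Cd3g (ENSMUSG00000002033, chromosome 9, 44969572 to 44980431) and Cd3d (ENSMUSG00000032094, chromosome 9, 44981786 to 44987339) are transcribed away from each other from starts 1355 bases apart, and Cd3e (ENSMUSG00000032093, chromosome 9, 44998740 to 45009627) starts 27841 bases from Cd3d. The promoters of these 3 genes are printed because their RNA was highest in the same libraries, and that of Lat because its RNA had the opposite order between tissues. The sequences run from 250 bases before to 50 bases after the RefSeq start on GRCm38.p6, and RefSeq promoters were found for 8 of the 10 genes, Trac and Trbc2 having none in the table. They were searched on both strands for AGATAA, a motif of GATA factors, GGAAGT, a motif of ETS factors, and TGTGGT, a motif of RUNX factors, and matches are in capitals. The windows are chr9:44980382-44980681, minus strand for Cd3g, chr9:44981536-44981835, plus strand for Cd3d, chr9:45009562-45009861, minus strand for Cd3e and chr7:126369519-126369818, minus strand for Lat.
Cd3g promoter: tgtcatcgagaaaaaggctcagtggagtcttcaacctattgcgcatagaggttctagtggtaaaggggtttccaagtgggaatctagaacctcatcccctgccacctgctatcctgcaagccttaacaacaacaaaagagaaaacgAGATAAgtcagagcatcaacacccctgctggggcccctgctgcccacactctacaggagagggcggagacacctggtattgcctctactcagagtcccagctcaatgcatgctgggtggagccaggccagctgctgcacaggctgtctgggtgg
Cd3d promoter: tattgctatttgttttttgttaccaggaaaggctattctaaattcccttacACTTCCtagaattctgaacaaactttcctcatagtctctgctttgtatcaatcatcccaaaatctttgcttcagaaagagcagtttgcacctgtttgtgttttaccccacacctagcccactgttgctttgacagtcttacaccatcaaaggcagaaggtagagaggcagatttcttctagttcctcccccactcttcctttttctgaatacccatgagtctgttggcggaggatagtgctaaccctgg
Cd3e promoter: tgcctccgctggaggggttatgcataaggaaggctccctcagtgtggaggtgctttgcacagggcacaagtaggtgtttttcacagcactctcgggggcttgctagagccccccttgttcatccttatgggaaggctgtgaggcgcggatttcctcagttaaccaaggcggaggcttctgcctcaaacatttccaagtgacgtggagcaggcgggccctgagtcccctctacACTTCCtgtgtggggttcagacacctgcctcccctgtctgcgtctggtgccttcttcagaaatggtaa
Lat promoter: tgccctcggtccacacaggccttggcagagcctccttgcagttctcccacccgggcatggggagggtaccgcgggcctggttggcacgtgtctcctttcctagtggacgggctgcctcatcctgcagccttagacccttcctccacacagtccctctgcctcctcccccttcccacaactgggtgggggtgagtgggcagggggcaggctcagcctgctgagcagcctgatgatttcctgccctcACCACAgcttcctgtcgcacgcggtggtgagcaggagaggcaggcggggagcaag
Cd3d and Cd3e each held 1 ETS match, written here as its reverse complement ACTTCC, and no match to the other motifs. Cd3g held 1 GATA match and no ETS match, and Lat held 1 RUNX match as the reverse complement ACCACA. Of all 32851 promoters of the same length, 23.8% held the ETS motif, 11.2% the GATA motif and 16.8% the RUNX motif.

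Total counts per library were between 7756762 and 27386184, and a count of 0 allowed up to 3 counts, or 0.105 to 0.405 CPM depending on the library, for counting error only. CPM are counts relative to library size, scaled with edgeR's TMM factors, and a gene is called at an adjusted p under 0.05 in edgeR's quasi-likelihood test. Errors of log2 fold changes are SE. Of the 4 genes of the sorted proteins, 2 were called between tissues averaged over treatments, Pf4 and Ptprc, beside 4.75% of all tested genes. Itga2b and Gp1ba were not called, though all 4 had an unadjusted p under 0.05 (19.3% of all tested genes). Pf4 had 9606 to 30581 CPM in the 6 BM libraries and 476 to 2439 CPM in the 6 splenic libraries. Itga2b, which encodes CD41, had 156 to 435 and 6.43 to 320.5 CPM, and Gp1ba, which encodes CD42b, 17.2 to 123 and 0.112 to 24.0 CPM. Ptprc, which encodes CD45, was called higher in spleen (log2 fold change 2.67 ± 0.35, adjusted p = 9.45e-05). The 10 MK markers summed to 11753 to 47536 CPM in BM and 1206 to 3521 CPM in spleen, and the log2 fold change of each, spleen over BM averaged over treatments, was negative, with 6 of 10 called. The 10 B cell markers summed to 62.7 to 292 CPM in BM and 3051 to 10232 CPM in spleen, with 10 of 10 called higher in spleen, and the 7 plasma cell markers to 1481 to 4691 and 7465 to 80829 CPM, with 5 of 7 called higher. Of the B cell precursor markers 4 of 6 were tested and 1, Vpreb3, was called higher in spleen. The 10 neutrophil and monocyte markers summed to 8637 to 20132 CPM in BM sepsis 2 and 3, spleen saline 1 and spleen sepsis 1, and to 136 to 1231 CPM in the other 8 libraries. Of these 10, 0 were called on average or after sepsis, and 1, Ly6c2, was called higher in spleen after saline (log2 fold change 2.75 ± 0.65, adjusted p = 0.0406), where 9 of 10 had a positive log2 fold change. The Ly6c2 call was lost in 6 of 21 alternatives (adjusted p up to 0.181), namely without BM saline 1, BM saline 2 or spleen saline 1, with library size alone, in limma-voom and with the 6 libraries of the contrast alone. The part of these cell type differences in the results below was not tested. In bulk libraries fewer cells that hold a transcript and less of it per cell cannot be told apart.

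Summed, the TCR complex genes reached higher levels in 4 of the 6 splenic libraries than in any BM library. The 6 genes of the complex summed to 98, 46.8 and 5.49 CPM in BM and 2051, 903 and 80.4 CPM in spleen after saline, and to 97.9, 1.70 and 7.58 CPM in BM and 474, 328 and 41.8 CPM in spleen after sepsis, in the order of replicates 1, 2 and 3, which is kept below. Replicates 1 and 2 of both splenic groups stood above every BM library, whereas replicate 3 after saline and replicate 3 after sepsis lay inside the BM range. Averaged over treatments, the log2 fold change of spleen over BM was positive for 9 of the 10 genes (53.1% of all tested genes), with a median of 3.46 beside 0.13 over all tested genes, and Lat was the exception. The test called 2 of the 10, beside 4.75% of all tested genes.

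**Figure D1:**
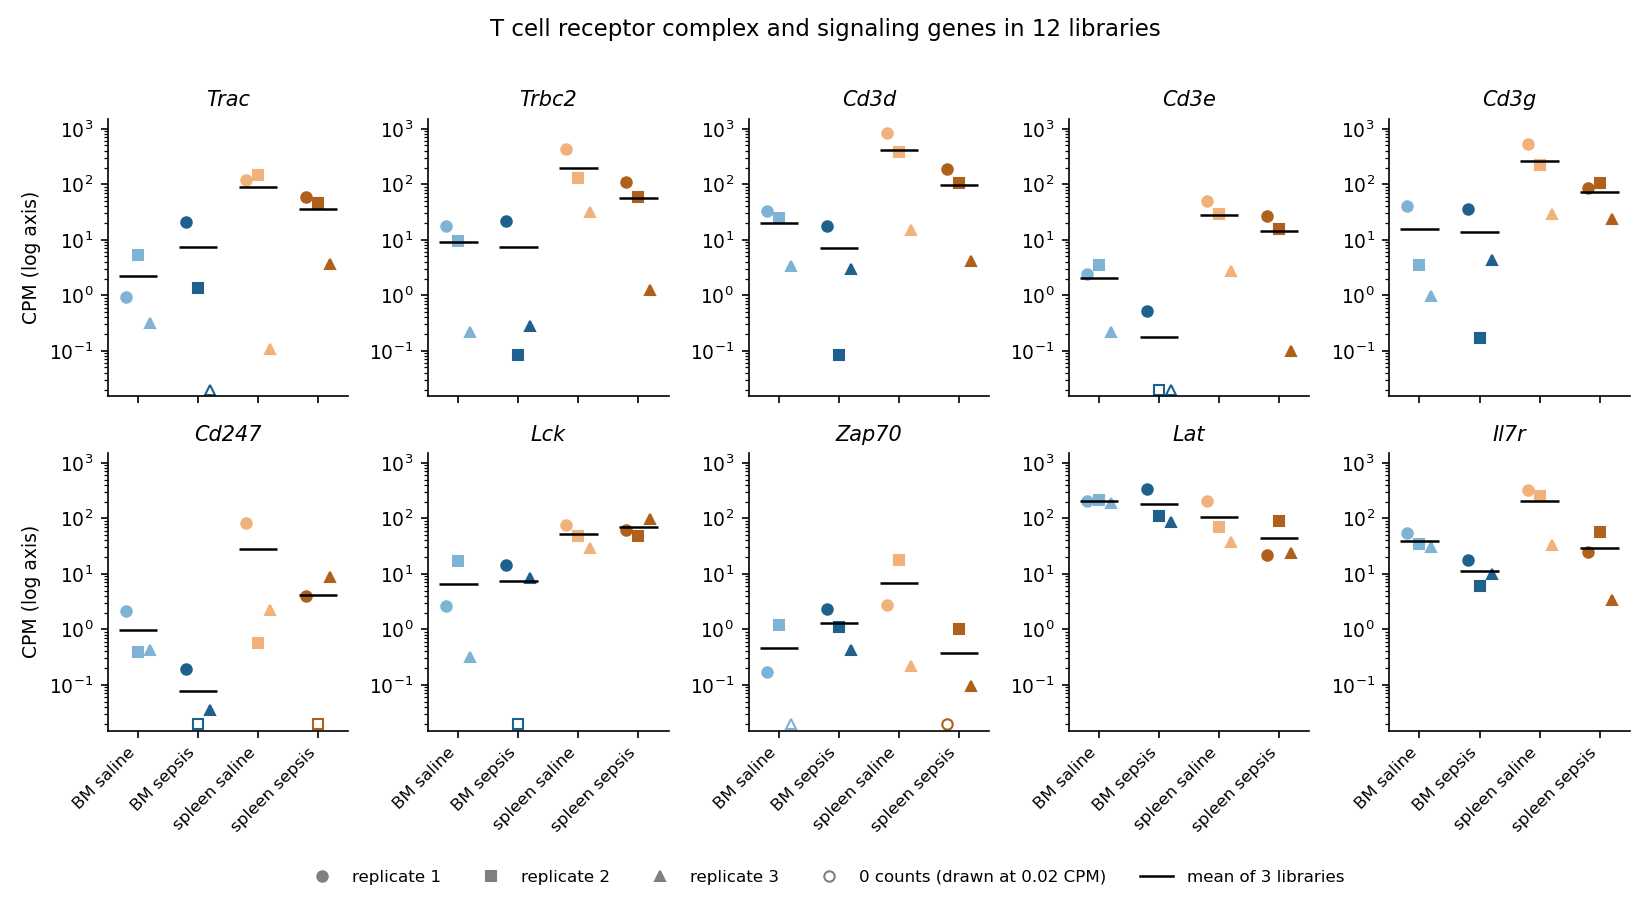
CPM of each of the 10 genes in the 12 libraries on a log axis, with a marker shape for each replicate number, the mean of 3 libraries as a bar and open markers for libraries with 0 counts. Trac, Trbc2 and Cd3d to Cd3g were highest in replicates 1 and 2 of both splenic groups, Lck was higher in all 6 splenic libraries than in any BM library, and Lat had its 3 highest values in BM.

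Trac (ENSMUSG00000076928, chromosome 14, 54220521 to 54224206) is the constant segment that every TCR alpha chain shares. Trac had 0.945, 5.37 and 0.323 CPM in BM MKs after saline and 20.7, 1.36 and 0 CPM after sepsis. In splenic MKs the level was 118, 144 and 0.107 CPM after saline and 57.9, 45.9 and 3.69 CPM after sepsis. The 4 highest libraries were spleen saline 1 and 2 and spleen sepsis 1 and 2, which held 91.9% of the summed CPM, and spleen saline 3, with a single count, lay below all BM libraries but the 1 at 0. Trbc2 (ENSMUSG00000076498, chromosome 6, 41546730 to 41548352) is 1 of a pair of near-identical beta chain constant segments, so that reads may have been split between it and Trbc1. In BM the level of Trbc2 was 17.5, 9.64 and 0.215 CPM after saline and 22.1, 0.0850 and 0.281 CPM after sepsis. Spleen had 427, 129.8 and 31.6 CPM after saline and 111, 58.0 and 1.3 CPM after sepsis. Its 4 highest libraries were those of Trac, and all 3 splenic libraries after saline lay above all 3 BM libraries after saline, whereas spleen sepsis 3 lay inside the BM range. Neither gene was called in any comparison by edgeR's quasi-likelihood test with Benjamini-Hochberg adjustment. The averaged log2 fold change of spleen over BM was 3.79 ± 1.29 (adjusted p = 0.107) for Trac and 3.67 ± 1.17 (adjusted p = 0.0828) for Trbc2.

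Trbc1 had 0 to 24.7 CPM in BM and 0.582 to 138 CPM in spleen, where spleen sepsis 3 was again the lowest. The gamma chain constant segments Trgc1 and Trgc2 were at 0 counts in 8 and 7 of the 12 libraries, and together the gamma constant segments of the annotation had 724 counts in spleen saline 1, 370 in BM saline 1, 309 in spleen saline 2 and at most 29 in any other library. Trdc, the delta chain constant segment, had at most 51 counts in any library and was at 0 in 6. None of these 4 genes was called in any comparison, and at an unadjusted p under 0.05 edgeR gave 2 of 4 between tissues averaged over treatments, where 19.3% of all tested genes passed. The same count was 1 of 4 after saline (12.5% of all tested genes), 1 of 4 after sepsis (12.9%), 3 of 4 with sepsis in spleen (13.1%), where all 4 log2 fold changes were negative, 0 of 4 with sepsis in BM (3.54%) and 2 of 4 for the interaction (7.68%). Between tissues the directions were mixed. The log2 fold change of spleen over BM was positive for 2 and negative for 2 on average, positive for all 4 after saline and negative for 3 after sepsis.

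The 2 genes that edgeR called, Cd3d and Cd3e, are both CD3 chains. BM MKs held 33.5, 24.4 and 3.34 CPM of Cd3d after saline and 18.1, 0.0850 and 2.95 CPM after sepsis. Splenic MKs held 833, 375 and 15.0 CPM after saline and 188, 104 and 4.08 CPM after sepsis. The CD3 delta chain transcript was thus highest in spleen saline 1, followed by spleen saline 2 and spleen sepsis 1 and 2, and the tissues overlapped in spleen saline 3 and spleen sepsis 3, which lay below BM saline 1 and 2. Cd3d was higher in spleen averaged over treatments, with a log2 fold change of 4.06 ± 1.03 (adjusted p = 0.0249) in edgeR. Its value was 4.32 ± 1.48 (adjusted p = 0.228) after saline and 3.81 ± 1.44 (adjusted p = 0.292) after sepsis. Cd3e encodes the epsilon chain, which pairs with the delta and the gamma chain. Cd3e had 2.41, 3.48 and 0.215 CPM in BM MKs after saline and 0.522, 0 and 0 CPM after sepsis. In splenic MKs the level was 50.7, 29.2 and 2.68 CPM after saline and 26.4, 15.9 and 0.0971 CPM after sepsis. The BM libraries after sepsis had 8, 0 and 0 counts, so the fitted fold change against them depends on edgeR's prior count. Spleen sepsis 3, with 1 count, and spleen saline 3 lay among the BM libraries, and the other 4 splenic libraries lay above them. Cd3e was higher in spleen averaged over treatments, with a log2 fold change of 5.02 ± 1.40 (adjusted p = 0.0432), and had 3.75 ± 1.85 (adjusted p = 0.402) after saline and 6.29 ± 2.11 (adjusted p = 0.203) after sepsis.

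The gamma chain gene Cd3g was not called, but its 4 highest libraries were again spleen saline 1 and 2 and spleen sepsis 1 and 2. In BM the level of Cd3g was 41.4, 3.58 and 0.969 CPM after saline and 36.3, 0.170 and 4.32 CPM after sepsis. Spleen had 541, 224 and 28.6 CPM after saline and 87.0, 104 and 24.1 CPM after sepsis. BM saline 1 and BM sepsis 1 lay above spleen saline 3 and spleen sepsis 3, and the other 4 splenic libraries lay above all BM libraries. The averaged log2 fold change was 3.25 ± 0.98 (adjusted p = 0.0658). Cd247 (ENSMUSG00000005763, chromosome 1, 165788681 to 165877277) encodes the zeta chain, which NK cells also use. BM MKs held 2.15, 0.398 and 0.431 CPM of Cd247 after saline and 0.196, 0 and 0.0351 CPM after sepsis. Splenic MKs held 81.6, 0.578 and 2.25 CPM after saline and 3.96, 0 and 8.64 CPM after sepsis. Spleen saline 1 alone, with 604 counts, stood 9.45 times above the next library, spleen sepsis 3, and spleen saline 3 lay only just above BM saline 1, the highest BM library. Its averaged log2 fold change was 5.21 ± 1.54 (adjusted p = 0.0593). Of the exonic length of Cd247, 60.3% is shared with Gm16565 and, on the opposite strand, Pou2f1, and whether counting used strand is not given in the sources used here, so its counts may include reads of those genes.

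Between tissues averaged over treatments, 9 of the 10 genes had an unadjusted p under 0.05 in edgeR, beside 19.3% of all tested genes. It called 0 of 10 after saline alone, where 1.25% of all genes were called and 7 of the 10 had an unadjusted p under 0.05 beside 12.5% of all genes. After sepsis alone it called 0 of 10, with 1.78% of all genes called and 5 of the 10 at an unadjusted p under 0.05 beside 12.9%. The fold change was positive for 9 of 10 after saline (56.2% of all genes) and 8 of 10 after sepsis (53.8%). DESeq2 called 0 of 10 after saline, 1 (Cd3e) after sepsis and 6 on average, beside 6.13%, 6.72% and 11.1% of all genes it gave an adjusted p. Limma-voom with quality weights called 0, 0 and 4 (Lck, Cd3g, Cd3e and Trbc2), beside 0.913%, 3.57% and 7.49% of all tested genes. After sepsis alone 4 genes were called without BM sepsis 1, and after saline alone 3 were called without BM sepsis 1, 2 without BM sepsis 2 or BM sepsis 3, and 1 without BM saline 1 or spleen saline 3. On average, leaving out 1 library at a time gave between 2 and 8 called genes, namely 8 without spleen saline 3, 7 without BM sepsis 1 or spleen sepsis 2, 6 without BM saline 2, 5 without spleen saline 2 or spleen sepsis 3, and 4 without BM sepsis 2, BM sepsis 3 or spleen sepsis 1. It gave 3 without BM saline 1 or BM saline 3, and 2, Lat and Cd3d, without spleen saline 1. Among all tested genes these fits called 197 to 467 after saline, 307 to 512 after sepsis and 810 to 1151 on average. Cd3d was called in 19 of 20 alternatives and missed in limma-voom (adjusted p = 0.0568). Cd3e was called in 13 of 20, and was not called in edgeR without BM saline 1, BM saline 3, BM sepsis 2, BM sepsis 3, spleen saline 1 or spleen sepsis 1, or with library size alone (adjusted p between 0.0573 and 0.0805). Of the genes not called with all 12 libraries, Cd3g was called in 11 of the 12 fits that left out 1 library, Trbc2 in 10, Lck in 6, Cd247 in 5, Trac in 4, Il7r and Lat in 2 each, and Zap70 in 0. Each of these fits repeated the expression filter and tested 23354 to 26112 genes, against 20263 with all libraries. A call gained or lost in them therefore cannot be laid to the left-out library alone.

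**Figure D2:**
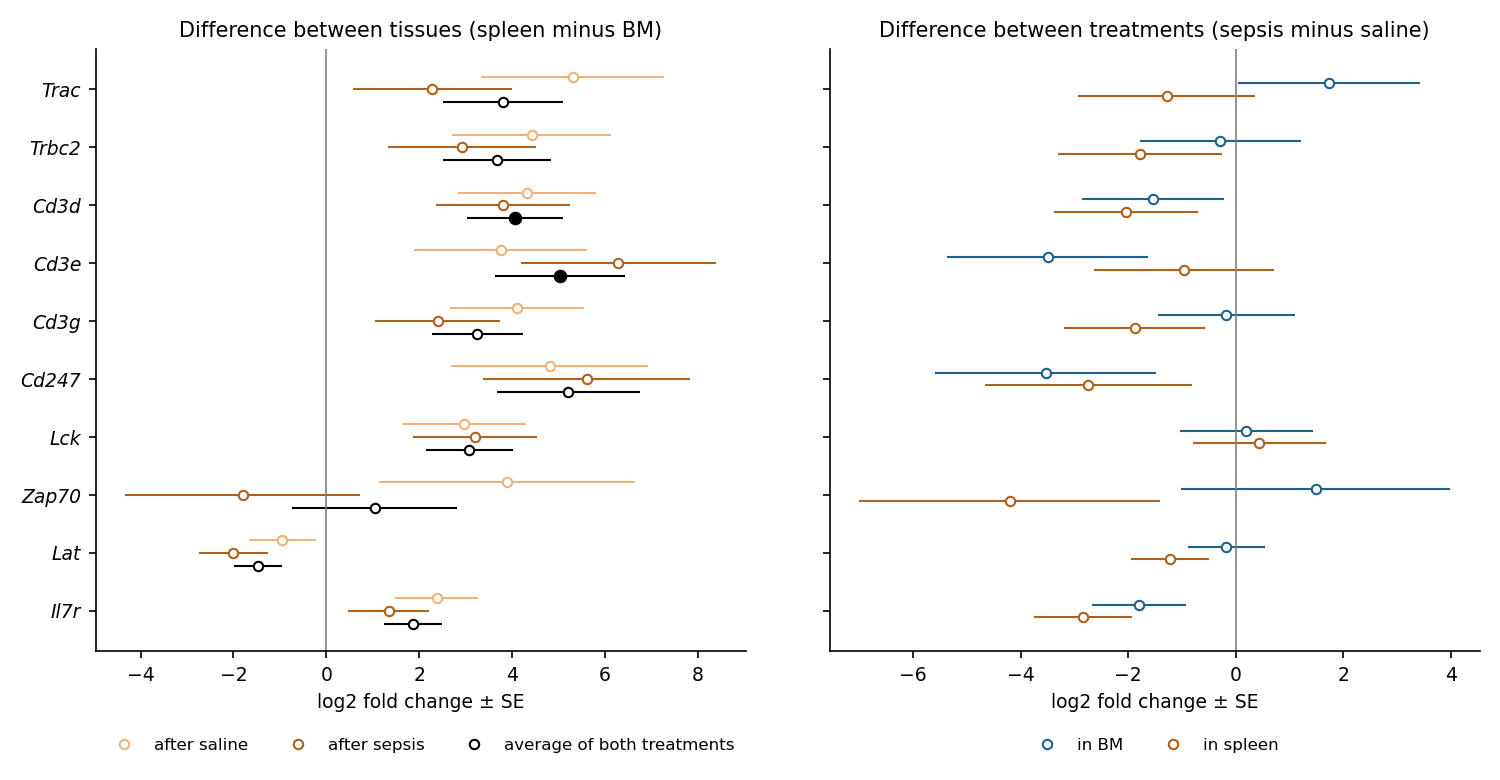
log2 fold change ± SE of each gene in edgeR, spleen minus BM on the left and sepsis minus saline on the right, with filled points for an adjusted p under 0.05. Only Cd3d (4.06) and Cd3e (5.02) in the average between tissues are filled, Lat alone lies below 0 in all 3 tissue contrasts, and no point is filled on the right.

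Lck (ENSMUSG00000000409, chromosome 4, 129548344 to 129573641) starts the cascade by phosphorylating the CD3 and zeta chains. Lck had 2.58, 16.8 and 0.323 CPM in BM MKs after saline and 14.2, 0 and 8.32 CPM after sepsis. In splenic MKs the level was 75.7, 48.3 and 29.6 CPM after saline and 62.5, 48.3 and 97.0 CPM after sepsis. Every splenic library lay above every BM library, after saline, after sepsis and over both treatments, and the highest was spleen sepsis 3, in which Trac, Cd3d, Cd3e and Cd3g lay inside the BM range. Among the 10 genes Lck and Trbc2 did not overlap between tissues after saline, where 7% of all tested genes lay wholly higher in spleen, and Lck alone did so after sepsis (7.02%) and over all 12 libraries (1.87%). The averaged log2 fold change of Lck was 3.08 ± 0.95 (adjusted p = 0.0703), which edgeR did not call. Zap70 (ENSMUSG00000026117, chromosome 1, 36761798 to 36782818), which binds the phosphorylated chains, was low in most libraries. It had 2, 12 and 0 counts in BM MKs after saline, 36, 13 and 12 after sepsis, 20, 215 and 2 in splenic MKs after saline and 0, 9 and 1 after sepsis. Spleen saline 2 held most of them, at 17.7 CPM, and 5 of the 12 libraries were at or under 3 counts. The averaged log2 fold change, 1.05 ± 1.78 (adjusted p = 0.788), was smaller than its SE.

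Lat (ENSMUSG00000030742, chromosome 7, 126363824 to 126369570) was the 1 gene of the 10 whose log2 fold change of spleen over BM, averaged over treatments, was negative. In BM the level of Lat was 209, 211 and 185 CPM after saline and 339.8, 108 and 87.3 CPM after sepsis. Spleen had 207, 69.1 and 37.1 CPM after saline and 22.3, 87.7 and 23.9 CPM after sepsis. The 3 BM libraries after saline were close together, and of the splenic libraries only spleen saline 1 reached their level. This average was -1.48 ± 0.52 (adjusted p = 0.115), with -0.95 ± 0.72 (adjusted p = 0.627) after saline and -2.0 ± 0.74 (adjusted p = 0.273) after sepsis, and none was called by edgeR. With library size alone in place of TMM factors the averaged value was -2.03 and was called (adjusted p = 0.0124), and it was also called without spleen saline 1 (-2.07, adjusted p = 0.0163) and without spleen sepsis 2 (-2.04, adjusted p = 0.0220). Lat and Il7r were the 2 genes of the 10 with more than 3 counts in every library.

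The genes that act with Lat downstream of GPVI and CLEC-2 were mixed. Of 10 such genes, 5 had a positive and 5 a negative averaged log2 fold change between tissues, with a median of -0.08 beside 0.13 over all tested genes, and their summed level was 1047 to 3117 CPM in BM and 1115 to 1961 CPM in spleen. Clec1b, which encodes CLEC-2, was lower in spleen, at 11.3 to 164 CPM against 179 to 1150.2 CPM in BM (log2 fold change -2.52 ± 0.59, adjusted p = 0.0154 in edgeR, and 0.102 in limma-voom). Fcer1g, which encodes the FcR gamma chain, was lower in splenic than in BM MKs after sepsis (log2 fold change -2.65 ± 0.56, adjusted p = 0.0148), and this call was lost in limma-voom (adjusted p = 0.0714) and with the 6 libraries of the contrast alone (0.0682). With sepsis in spleen 4 of the 10 had an unadjusted p under 0.05 in edgeR, beside 13.1% of all tested genes. The 1 gene called there was Fcer1g (log2 fold change -3.16 ± 0.57, adjusted p = 0.0307). It had 1242, 1279 and 726 CPM after saline and 135, 133 and 94.6 CPM after sepsis, and its groups did not overlap. Its call with sepsis was lost in limma-voom (adjusted p = 0.328) and in edgeR with the 6 splenic libraries alone (0.313). Gp6, which encodes GPVI, had 14.3 to 95.5 CPM in BM and 3.30 to 33.7 CPM in spleen and was not called.

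Il7r (ENSMUSG00000003882, chromosome 15, 9505788 to 9530176) encodes the receptor chain that binds IL-7 and that naive and memory T cells, B cell precursors and innate lymphoid cells carry. BM MKs held 53.8, 34.8 and 30.0 CPM of Il7r after saline and 17.7, 6.12 and 10.1 CPM after sepsis. Splenic MKs held 327, 256 and 32.6 CPM after saline and 25.0, 57.7 and 3.40 CPM after sepsis. Spleen saline 1 and 2 stood apart from all other libraries, spleen saline 3 lay within the range of BM saline, and spleen sepsis 3 was the lowest of the 12. The averaged log2 fold change of spleen over BM was 1.86 ± 0.62 (adjusted p = 0.102), which edgeR did not call, and it was called without spleen saline 3 (2.08, adjusted p = 0.0301) and without spleen sepsis 3 (2.09, adjusted p = 0.0179). Among 8 genes of the IL-7 receptor pathway, Il2rg, the common gamma chain that pairs with Il7r, was called in all 3 comparisons between tissues, with 4.17 to 28.8 CPM in BM and 64.2 to 287 CPM in spleen and an averaged log2 fold change of 3.35 ± 0.54 (adjusted p = 0.000661). The average was called in all 20 alternatives, whereas the calls after saline (adjusted p = 0.0406) and after sepsis (0.0205) were lost in 6 and 4 of 21, with adjusted p up to 0.188 and 0.0989. The remaining 7 genes were not called on average, and the median of the list was 0.25 beside 0.13 over all tested genes. Il2rg is used by many leukocytes, and it lay above the BM range in every splenic library, which Il7r did not. Of the exonic length of Il2rg, 30.5% is shared with Gm20489 on the same strand, so the Il2rg counts may include reads of that gene.

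The comparison between sepsis and saline asked whether the level of the 10 genes in MKs of 1 tissue moved 5 days after CS. None of the 10 was called in BM, where 0% of all tested genes were called by edgeR and 3.54% had an unadjusted p under 0.05, and 0 of the 10 reached an unadjusted p under 0.05. None was called in spleen, where 0.158% of all genes were called, and 1 of the 10, Il7r, had an unadjusted p under 0.05 beside 13.1% of all genes. DESeq2 and limma-voom called 0 of 10 in both tissues. In spleen, 9 of 10 genes had a negative log2 fold change with a median of -1.83 beside -0.08 over all tested genes (47.4% of all genes were positive), and Lck was the 1 positive gene. None of the 10 lay wholly lower after sepsis in spleen, beside 4.51% of all genes. The largest of these differences by unadjusted p was that of Il7r, with a mean of 205 ± 154 CPM (SD, n = 3) after saline and 28.7 ± 27.3 CPM (SD, n = 3) after sepsis and a log2 fold change of -2.84 ± 0.91 (adjusted p = 0.334) in edgeR. In BM, 7 of 10 were negative and 3 positive (45.9% of all genes were positive), with a median of -0.23 beside -0.08, and Il7r and Cd247 were lower in all 3 libraries after sepsis than in any after saline, as were 4.16% of all tested genes. For Il7r the BM means were 39.5 ± 12.6 CPM (SD, n = 3) and 11.3 ± 5.90 CPM (SD, n = 3), a log2 fold change of -1.80 ± 0.88 (adjusted p = 1), and for Cd247 at most 25 counts stood behind any BM value.

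Whether sepsis acted differently in the tissues was asked by the tissue by sepsis interaction. The test called 0 of the 10 genes, with 0 of 10 at an unadjusted p under 0.05, and 0% of all tested genes (7.68% at an unadjusted p under 0.05), and DESeq2 and limma-voom called 0 of 10. Its sign was positive for 3 of 10, beside 51.5% of all genes. The SE of the interaction was between 1.01 for Lat and 3.72 for Zap70 on the log2 scale. With a common dispersion of 2.05 over all tested genes, the biological coefficient of variation between libraries of a group was 143%.

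Of 10 coreceptors and costimulatory receptors of T cells, 5 were called higher in spleen averaged over treatments and the other 5 also had a positive log2 fold change, with a median of 4.82 beside 0.13 over all tested genes. Cd8a and Cd8b1 encode the chains of CD8, and the averaged log2 fold change was 6.11 ± 1.32 (adjusted p = 0.00828) for Cd8a and 6.51 ± 1.16 (adjusted p = 0.00173) for Cd8b1. Summed, they had 597, 158 and 77.1 CPM in spleen after saline and 177, 76.4 and 0.388 CPM after sepsis, against 11.7, 2.09 and 0.646 CPM and 0.326, 6.46 and 0.105 CPM in BM. The 4 libraries highest in Cd3d, Cd3e and Cd3g were thus above every BM library in CD8, spleen saline 3 was also above every BM library, and spleen sepsis 3 was not. Cd4, the coreceptor of helper T cells, had at most 14.6 CPM in any library and 0 counts in 5 of 12. Cd2 (log2 fold change 5.17 ± 0.87, adjusted p = 0.000998), Cd28 (5.02 ± 1.19, adjusted p = 0.0160) and Cd5 (5.63 ± 1.60, adjusted p = 0.0477) were also higher in spleen. Cd2, an adhesion receptor of lymphocytes, was above the BM range in all 6 splenic libraries (46.2 to 457 CPM against 0.0850 to 13.6 CPM), as were the summed B cell markers. Cd5 was not called without BM saline 2, BM saline 3, BM sepsis 2, BM sepsis 3 or spleen saline 1 or with library size alone (adjusted p up to 0.304), and Cd28 was not called without BM sepsis 2 or BM sepsis 3 (adjusted p between 0.0510 and 0.0521).

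Further downstream, 1 of 16 genes of proximal TCR signaling was called between tissues averaged over treatments, beside 4.75% of all tested genes, 11 had a positive log2 fold change, and the median was 1.32 beside 0.13 over all tested genes. It was Ptpn22, a phosphatase that dampens antigen receptor signals, with 4.98 to 53.6 CPM in BM and 71.6 to 176 CPM in spleen (log2 fold change 2.71 ± 0.53, adjusted p = 0.00346). Lcp2, the SLP-76 adaptor that joins Lat in T cells and platelets, had 44.6 to 82.4 CPM in BM and 0.154 to 72.0 CPM in spleen. Of 9 tested T lineage transcription factors, Tcf7 (3.68 ± 0.85, adjusted p = 0.0132) and Ets1 (2.0 ± 0.40, adjusted p = 0.00454) were higher in spleen, Tcf7 was not called without spleen saline 2 (adjusted p = 0.0512), and the median was 1.87. Tcf7, a factor of naive and memory T cells, had 29.6, 95.6 and 5.69 CPM in spleen after saline and 27.7, 53.9 and 14.8 CPM after sepsis, whereas Foxp3 was at 0 counts in 9 libraries, Tbx21 was at 0 in 8, and Gata3 had at most 6.91 CPM.

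Of 9 NK and innate lymphoid markers 8 were tested and 2 called, and they summed to 757 to 1481 CPM in BM and 89.8 to 2522 CPM in spleen. In every BM library most of this sum was a single gene, Nkg7. Klrd1, which encodes CD94 of NK cells and some CD8 T cells, had 612, 277 and 0.215 CPM in spleen after saline and 32.3, 16.5 and 0.0971 CPM after sepsis, against 0 to 23.1 CPM in BM. Spleen saline 1 and 2 and spleen sepsis 1, all high in Cd3d, Cd3e and Cd3g, were its highest libraries, and it was higher in spleen on average (log2 fold change 5.24 ± 1.32, adjusted p = 0.0241). It was not called by limma-voom (adjusted p = 0.206). Nkg7, a granule protein gene of NK and cytotoxic T cells, had 719 to 1273 CPM in BM, 1357, 821 and 282 CPM in spleen after saline and 130, 135 and 25.4 CPM in spleen after sepsis. Spleen saline 1 lay above every BM library, and the 3 spleen libraries after sepsis lay below every BM library. Nkg7 was lower in spleen after sepsis (log2 fold change -3.30 ± 0.66, adjusted p = 0.0116, and 0.0546 with the 6 libraries of the contrast alone) and on average (-1.74 ± 0.44, adjusted p = 0.0245, and 0.0942 in DESeq2), and was not called after saline (-0.18 ± 0.61, adjusted p = 0.953). Klrb1c, which encodes NK1.1, was at 0 counts in 7 libraries. The part of cells of these kinds in the TCR values was not tested.

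**Figure D3:**
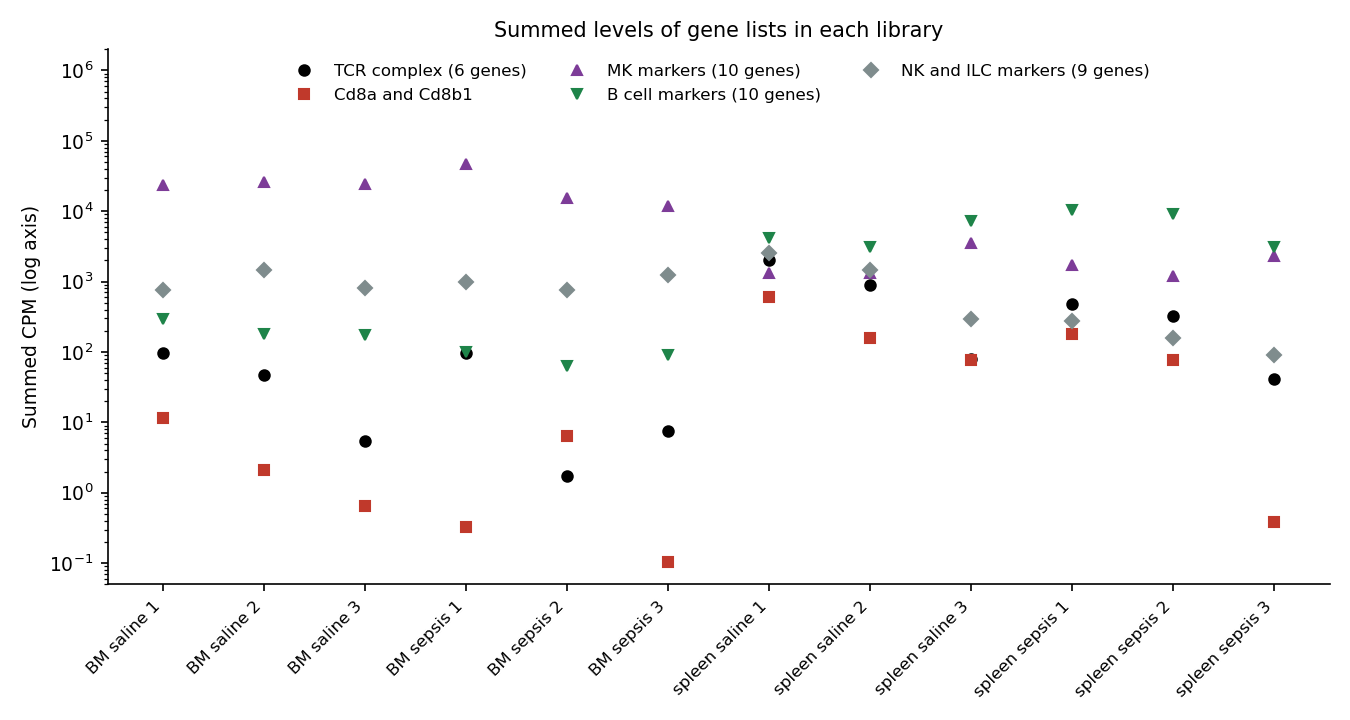
Summed CPM of gene lists in each of the 12 libraries on a log axis, with 1 marker shape for each list. The 6 TCR complex genes and the pair Cd8a and Cd8b1 were highest in spleen saline 1 and were at 41.8 and 0.388 CPM in spleen sepsis 3, whereas B cell markers were above every BM library in all 6 splenic libraries.

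Compared per length (RPKM, CPM divided by the exonic length in kilobases), the order of the 10 genes by their median over the 12 libraries was Lat, Trbc2, Cd3d, Cd3g, Lck, Il7r, Trac, Cd3e, Zap70 and Cd247. The median level was 35.4 RPKM for Lat, 28.6 RPKM for Trbc2 and 11.7 RPKM for Cd3d, and it was 0.624 RPKM for Cd3e, 0.239 RPKM for Zap70 and 0.0946 RPKM for Cd247. The ranges over libraries of all neighbours in this order overlapped. Within splenic MKs after saline the order was led by Cd3d (207 RPKM), Trbc2 (188 RPKM) and Trac (126 RPKM), and in BM MKs after saline by Lat (75.5 RPKM), with Trbc2 (13.9 RPKM) and Cd3d (13.4 RPKM) next. The chains of the complex were thus unequal, Cd3e being 7.16 RPKM and Cd247 0.423 RPKM in the same splenic group.

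**Figure D4:**
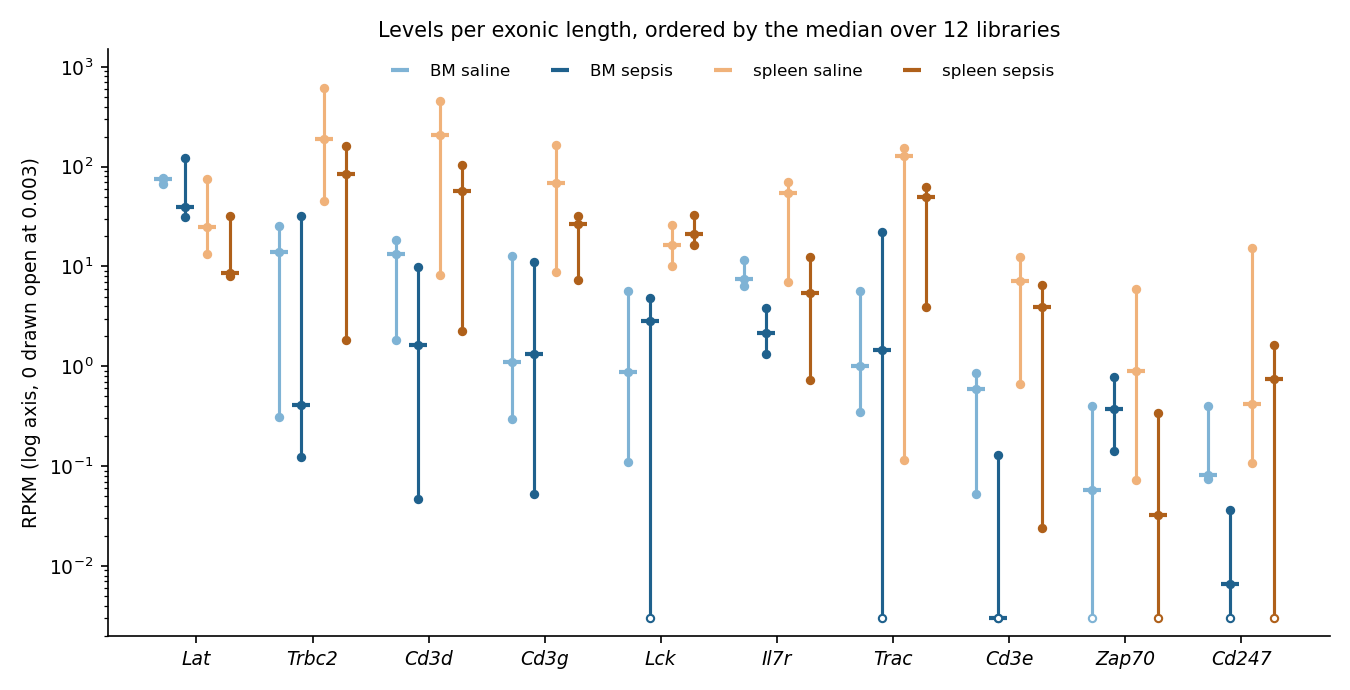
RPKM of the 10 genes on a log axis, in the order of their median over 12 libraries, with points for the 3 libraries of each group, a line over their range and a bar at their median. Lat spans 8.04 to 123 RPKM, on the log axis a narrower range than the other genes, and Trac, Cd3e, Cd247, Lck and Zap70 reach 0 in at least 1 library.

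Outside the 10 genes described here, those whose log2 CPM was most like the mean of the 4 CD3 chains over the 12 libraries were Ms4a4b (Pearson r = 0.936), Vamp4 (0.901), Zup1 (0.901), Sat1 (0.898) and Cd8b1 (0.894). Among the genes described here other than the CD3 chains, Trbc2 had r = 0.941, Il7r 0.770, Lck 0.760, Trac 0.730, Zap70 0.299 and Lat -0.121. The genes most like Lat were Capn3 (0.944), Nt5c3 (0.938), A630001O12Rik (0.898), Rap2a (0.895) and Gm49336 (0.894). These values describe 12 libraries of unequal depth that fall into 4 groups, and include the difference between tissues.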

How the data were processed

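Bulk RNA-seq of 12 libraries was used, 3 from each of 4 groups. The deposited table holds raw read counts per gene for each library, and the authors' notes name STAR 2.7.2b, R 3.6.1, DESeq2 1.26 and the build GRCm38 without stating a role. How reads were assigned to genes and with which annotation is not stated in the sources used here, nor whether same-numbered libraries shared a mouse. The replicates are labelled as separate samples, so that p-values measure the spread between these libraries. Amplified reads are not independent molecules, and floors of 3 counts cover counting error only.

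Identifiers were matched to GENCODE M21 on GRCm38, in which all 55536 were found. Genes were kept with filterByExpr at a minimum count of 10. A model with 1 mean per group was fitted over all 12 libraries with edgeR 4.0.16 in R 4.3.3 with TMM factors of 0.713 to 1.43 and the quasi-likelihood F test, with 8 residual degrees of freedom and 11.1 from the prior. The 6 contrasts were each adjusted by Benjamini-Hochberg over all 20263 tested genes. A positive log2 fold change means higher in spleen or after sepsis, and SE is its absolute value divided by the square root of F. Log2 CPM for correlations used a prior count of 2, and RPKM is CPM per kilobase of exonic length. Tables and figures used Python 3.11.15, pandas 2.3.3 and matplotlib 3.10.9. The test was checked on simulated counts with known changes between tissues after saline. There edgeR missed most of the changed genes, and DESeq2 called more unchanged than changed genes. A gene that was not called is therefore not shown to be unchanged.

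The genes named were the 10 members, the genes of the sorted proteins, from every other list each gene called in at least 1 contrast and otherwise its first 3, and the 5 genes most like the CD3 chains and Lat. Cd4, Lcp2, Gp6, Gata3, Foxp3, Tbx21, Klrb1c, Trdc and the V and J segments are named outside this rule, after their values were seen. The values of 1 listed gene are not reported here. The members and the lists were chosen with earlier results of these data known. The alternatives were 9 other settings, among them DESeq2 1.42.0, limma-voom (limma 3.58.1) and the replicate number as a block, and leaving out each library in turn. The fits that left out a library repeated the expression filter on the remaining libraries.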

Additional observations from a re-analysis of the deposited data

How the results depend on the processing

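With no expression filter the number of called members was 4 between tissues after saline, 2 after sepsis and 7 on average. Of all 45788 genes tested there, 529, 595 and 1295 were called in the same order. DESeq2 called 1 after sepsis and 6 on average, and limma-voom called 4 on average. Leaving out 1 library at a time gave 0 to 3 called members after saline, 0 to 4 after sepsis and 2 to 8 on average, and 0 in the other 3 contrasts. Among all tested genes these fits called 197 to 467 after saline, 307 to 512 after sepsis and 810 to 1151 on average. The set of tested genes also changed in these fits, because the expression filter was repeated in each. In correlations that were not limited to the members, same-numbered libraries did not deviate together (r between -0.0566 and 0.0447 over 18 pairs). With 3 libraries in each group, these correlations cannot tell whether same-numbered libraries shared a mouse or a day. The main model held no term for the replicate number. The summed TCR complex genes were nevertheless highest in replicate 1 of every group, and lowest in replicate 3 of every group but BM sepsis. Whether this order came from a shared mouse or a shared day of work was not tested. With the replicate block 2 members were called after saline and 5 on average, beside 288 and 955 of all 20263 tested genes. The Cd3g fold change with sepsis in BM turned to 0.37 with this block. Not every library correlated best with a library of its own number.

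No direction that had passed the test reversed. Limma-voom turned the Trac fold changes with sepsis to -0.80 in BM and 1.71 in spleen, and the interaction to 2.51 for Trac, 0.15 for Trbc2, 1.62 for Cd3d and -0.035 for Cd247. Leaving out 1 library gave sepsis effects in BM of -1.75 to 3.55 for Trac, -5.44 to 0.61 for Trbc2, -2.71 to 2.58 for Cd3g, -0.63 to 2.40 for Lck and -1.03 to 0.17 for Lat, and -3.78 to 1.57 for Cd247 in spleen. Interactions ranged from -4.71 to 0.51 for Trac, -2.41 to 3.69 for Trbc2, -1.34 to 1.66 for Cd3d, -4.43 to 0.85 for Cd3g, -0.45 to 5.08 for Cd247, -1.92 to 1.08 for Lck and -1.99 to 0.0016 for Lat, and the averaged Zap70 fold change from -0.49 to 2.06. The causes were not tested. Of the other member fold changes outside the leave-one-out fits, 474 kept direction and call, 25 gained and 2 lost the call. A fit on 6 libraries alone was not run for the average and the interaction, which need all 4 groups.

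Scaling moved the median of all genes between tissues by 0.26 after saline, 0.13 after sepsis and 0.20 on average with RLE factors, and by -0.49, -0.52 and -0.51 with library size alone, and by -0.19 with sepsis in spleen and -0.13 for the interaction with RLE factors. Of all genes 962 were called on average (543 higher and 419 lower in spleen), 633 and 326 with RLE factors, 424 and 1091 with library size alone, 1517 in all with limma-voom and 2174 with DESeq2. The same counts were 253, 185 and 1064 after saline and 361, 724 and 1238 after sepsis, and 32, 0 and 915 with sepsis in spleen. In BM, sepsis gave 0, 0 and 221, and the interaction 0, 0 and 472. With no filter they were 529, 595, 1295, 187, 81 and 130 in the order saline, sepsis, average, spleen, BM and interaction.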

Other observations

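Beta V segments and alpha or delta V segments had counts in every library, though in spleen sepsis 3 no beta V segment was over the floor. Gamma V segments had 0 counts in BM sepsis 1, BM sepsis 2 and spleen saline 3. The 22 beta V segments of the annotation had 449, 537 and 130 counts in splenic MKs after saline and 699, 173 and 3 after sepsis, against 132, 131 and 202 counts in BM MKs after saline and 248, 189 and 33 after sepsis. BM libraries thus held beta V counts although some had few counts of the beta constant segments, as in BM sepsis 2, with 189 beta V counts and 1 count over Trbc1 and Trbc2. In several libraries a single segment made up most of the beta V counts, namely Trbv19 with 95.4% in spleen sepsis 2, Trbv17 with 93.1% in spleen saline 3 and Trbv12-2 with 90.5% in BM sepsis 2. In spleen saline 1 the leading segment was Trbv12-2 with 36.5% and in spleen sepsis 1 Trbv29 with 47.2%, and these 2 libraries had 7 and 8 beta V segments over the floor of 3 counts.

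The 113 alpha or delta V segments had 294, 673 and 7 counts in splenic MKs after saline and 82, 337 and 219 after sepsis. Trdv2-2, a delta V segment, was the leading one in 4 of the 6 BM libraries and in spleen saline 1, and it made up 92.9% of 196 counts in BM sepsis 3, a library with 0 counts of Trac and 9 of Trdc. The gamma constant segments were led by Tcrg-C4 in BM saline 1 (92.4% of 370 counts) and by Tcrg-C1 in spleen saline 2 (87.7% of 309 counts), whereas in spleen saline 1 the leading segment, Tcrg-C2, held 37.4% of 724 counts. Each library pooled 300 cells, and these segments are short and alike, so that the counts depend on how reads with several matches were treated.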
